A study of Homo sapiens with 6 samples.

Results

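The genes of the proteasome were examined in RNA sequencing of 22Rv1 cells, an established human prostate carcinoma cell line, with and without knockdown of the chromatin reader ZMYND11. The members were all symbols of the count table that start with PSMA, PSMB, PSMC, PSMD, PSME, PSMF or PSMG followed only by digits, without the inducible pair PSMB8 and PSMB9. This gave 46 of 35322 symbols. There were 6 libraries, comprising 2 of control cells, 2 of a first knockdown (ZM11-kd1) and 2 of a second (ZM11-kd2). Controls are labelled WT with no treatment, while the study describes them as stable lines carrying control shRNAs. The hairpin behind either knockdown is not named in these sources. Separate cultures are not stated, so p-values measure only the spread between these libraries. ZMYND11 RNA was 141 and 135 CPM (reads relative to library size, TMM-scaled) in control, 27.7 and 26.1 in ZM11-kd1, and 21.6 and 22.7 in ZM11-kd2.

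The proteasome is the protease that degrades most ubiquitin-tagged proteins of the cytosol and nucleus. Its core particle is a barrel of outer alpha rings (PSMA genes), which gate the entrance, and inner beta rings (PSMB genes), which hold the proteolytic sites. A regulatory particle caps the barrel: its base has a ring of ATPases (PSMC genes) that unfolds substrates, and its lid (PSMD genes) removes the ubiquitin chain. Alternative caps and an inhibitor (PSME genes and PSMF1) and dedicated assembly chaperones (PSMG genes, PSMD5, PSMD9 and PSMD10) complete the set. When proteasome activity is limiting, the membrane-bound transcription factor encoded by NFE2L1, after deglycosylation by NGLY1 and cleavage by DDI2, is known to raise many proteasome genes together through antioxidant response elements. Interferon is known to raise PSMB8, PSMB9, PSMB10, PSME1 and PSME2.

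Promoter sequences are shown for members that carry letters of these elements, since most proteasome genes tested rose in both knockdowns. RefSeq promoters (250 bases before to 50 after each start, GRCh38.p14) were found for 40 members, with 48 promoters in all, and not for PSMA7, PSMB1, PSMB6, PSMB7, PSMD4 and PSMG3. The core of the antioxidant response element, TGACNNNGC on either strand, was present in 14 of 48 member promoters (29.2%) and in 13.3% of all 35116 promoters. These 14 promoters belong to 14 members, of which 8 rose in both knockdowns and 6 did not (PSMD5, PSMD9, PSME1, PSME4, PSMG1 and PSMG2). In both knockdowns 30 of all 44 members tested rose, as did 25.6% of all genes. Of the 8, 5 subunits of the rings, base and lid are shown as examples, with the match in capitals, and PSMC4, PSMD1 and PSME2 are not shown for it.
PSMB3 promoter, chr17:38752491-38752790, plus strand: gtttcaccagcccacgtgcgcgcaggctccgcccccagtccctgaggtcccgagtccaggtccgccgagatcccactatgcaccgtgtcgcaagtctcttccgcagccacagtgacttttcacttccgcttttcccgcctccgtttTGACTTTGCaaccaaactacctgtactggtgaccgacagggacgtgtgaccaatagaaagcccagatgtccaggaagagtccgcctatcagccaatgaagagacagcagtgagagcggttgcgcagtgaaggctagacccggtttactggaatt
PSMA4 promoter, chr15:78540536-78540835, plus strand: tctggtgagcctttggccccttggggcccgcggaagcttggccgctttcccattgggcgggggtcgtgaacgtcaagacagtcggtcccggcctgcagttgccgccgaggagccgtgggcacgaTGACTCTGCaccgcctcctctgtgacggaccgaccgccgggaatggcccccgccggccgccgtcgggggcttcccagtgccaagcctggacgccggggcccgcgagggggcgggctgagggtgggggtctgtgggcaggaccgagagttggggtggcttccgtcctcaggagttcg
PSMC5 promoter, chr17:63827471-63827770, plus strand: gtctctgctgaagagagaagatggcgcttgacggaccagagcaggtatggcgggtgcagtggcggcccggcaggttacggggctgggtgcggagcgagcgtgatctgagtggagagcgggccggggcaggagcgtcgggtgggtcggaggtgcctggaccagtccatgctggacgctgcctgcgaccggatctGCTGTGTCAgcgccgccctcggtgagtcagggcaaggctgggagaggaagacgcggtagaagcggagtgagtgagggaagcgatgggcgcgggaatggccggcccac
PSMD3 promoter, chr17:39980557-39980856, plus strand: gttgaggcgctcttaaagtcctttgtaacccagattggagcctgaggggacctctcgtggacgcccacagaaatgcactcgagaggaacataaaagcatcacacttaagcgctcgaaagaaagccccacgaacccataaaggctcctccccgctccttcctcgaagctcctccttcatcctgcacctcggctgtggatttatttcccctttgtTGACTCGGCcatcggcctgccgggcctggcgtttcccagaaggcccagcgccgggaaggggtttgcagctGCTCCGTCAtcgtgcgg
PSMD12 promoter, chr17:67366528-67366827, minus strand: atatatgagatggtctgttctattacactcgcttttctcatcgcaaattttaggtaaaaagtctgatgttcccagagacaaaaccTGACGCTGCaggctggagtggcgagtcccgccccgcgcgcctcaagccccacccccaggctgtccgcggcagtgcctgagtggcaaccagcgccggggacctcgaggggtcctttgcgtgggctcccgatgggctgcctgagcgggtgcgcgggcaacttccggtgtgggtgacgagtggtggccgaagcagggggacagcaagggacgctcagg
The match began 104 bases before the start in PSMB3, 126 before in PSMA4, 57 before in PSMC5, 165 before in PSMD12, and 37 before and at position 34 after the start in PSMD3. PSMA4 has 3 promoter windows and PSMC5 has 2, for alternative starts, and in each gene only the 1 shown holds the match. An interferon response core, GAAANNGAA on either strand, was present in 7 member promoters (14.6%) against 8.1% of all promoters. The 3 interferon-inducible members among them, PSMB10, PSME1 and PSME2, are shown with that match in capitals. They were picked after their values were seen, being among the members with the largest fall between the knockdowns.
PSMB10 promoter, chr16:67936801-67937100, minus strand: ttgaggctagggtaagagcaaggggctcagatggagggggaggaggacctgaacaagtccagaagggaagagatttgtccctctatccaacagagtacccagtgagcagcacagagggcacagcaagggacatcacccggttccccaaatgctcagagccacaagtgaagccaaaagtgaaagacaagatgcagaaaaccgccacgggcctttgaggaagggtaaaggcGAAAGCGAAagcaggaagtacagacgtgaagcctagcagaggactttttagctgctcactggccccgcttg
PSME1 promoter, chr14:24135944-24136243, plus strand: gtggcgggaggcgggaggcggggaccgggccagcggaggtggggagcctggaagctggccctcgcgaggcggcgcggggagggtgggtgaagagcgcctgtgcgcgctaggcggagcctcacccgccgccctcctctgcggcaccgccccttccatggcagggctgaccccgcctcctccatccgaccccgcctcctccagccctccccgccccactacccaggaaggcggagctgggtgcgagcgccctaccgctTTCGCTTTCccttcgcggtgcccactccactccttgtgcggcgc
PSME2 promoter, chr14:24146561-24146860, minus strand: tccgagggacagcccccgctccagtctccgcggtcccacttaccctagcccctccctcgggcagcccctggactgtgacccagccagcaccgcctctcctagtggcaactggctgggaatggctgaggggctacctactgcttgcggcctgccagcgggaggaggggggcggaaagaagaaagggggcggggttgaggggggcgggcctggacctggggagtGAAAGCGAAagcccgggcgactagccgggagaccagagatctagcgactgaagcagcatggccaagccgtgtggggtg
Of the other letters searched on both strands, the ETS core CCGGAAG was in 31.2% of member promoters (10.3% of all) and AAGATGGCG (YY1) in 6.2% (1.7%). GCATGCGC, an element of the nuclear respiratory factor NRF1, which is not the product of NFE2L1, was in 6.2% (3.1%). CCAAT was in 39.6% (34.6%) and the E-box CACGTG in 6.2% (7.3%). No match of one motif overlapped a match of another in these promoters. Among the 38 tested members with a promoter, the median log2 fold change of the 14 with the antioxidant core was 0.94 in ZM11-kd1 and 0.41 in ZM11-kd2, and of the 24 without it 0.77 and 0.83. After the correction for GC content and transcript length described further on, these medians were 0.60 and 0.48 with it and 0.69 and 0.66 without. The 18 with CCAAT had medians of 1.26 and 0.93 and the 20 without it 0.62 and 0.29, or 0.87 and 0.82 against 0.59 and 0.37 after the correction. These matches and medians are descriptions of the windows shown and were given no test.

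Libraries held 26844128 to 38193748 counts, and members with low counts have the widest errors: the SE over the 44 tested had a median of 0.06 and reached 0.38 in ZM11-kd1 for PSMA2. All 12 luminal epithelial markers were present, summing to 3586 CPM in each control library, 3676 to 3708 in ZM11-kd1 and 4473 to 4510.2 in ZM11-kd2. Basal and endothelial markers (3 of each) summed to at most 0.234 CPM. No read fell on the T cell marker CD3E. The 3 fibroblast markers summed to 25.1 to 26.8 CPM in control, 77.3 to 78.0 in ZM11-kd1 and 31.3 to 33.5 in ZM11-kd2, mostly COL1A1, and 4 leukocyte markers to at most 4.06 CPM. Their part in the results was not tested. Reads shared with processed copies of the genes cannot be told apart. The summed counts of named pseudogenes were at most 11.1% of those of PSMA2, 2.60% of PSMC1 and 2.06% of PSME2.

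Most proteasome genes were higher in both knockdowns, and the proteolytic beta subunits rose together. Together the 46 genes took 0.457% ± 0.00825 of all counts in control, 0.836% ± 0.0106 in ZM11-kd1 and 0.735% ± 0.0348 in ZM11-kd2 (mean ± SD, n = 2). The libraries did not overlap between control and either knockdown, and the share was 1.83 and 1.61 times that of control. Fewer cells of a kind and less RNA per cell cannot be told apart in such bulk samples. Of the 44 members tested, 38 rose and 5 fell in ZM11-kd1, where 38.2% of all genes tested were called higher and 39.8% lower. In ZM11-kd2 34 rose and 2 fell, where 36.5% of all genes were higher and 36.9% lower. The median log2 fold change of the members was 1.06 in ZM11-kd1 (all genes -0.03) and 0.70 in ZM11-kd2 (all genes -0.03). A rise of at least 1.5-fold was called for 32 members in ZM11-kd1 (28.6% of all genes) and 23 in ZM11-kd2 (23.8% of all genes). Both knockdowns were set against the same 2 control libraries. In both, 30 members rose (25.6% of all genes) and only PSMA2 fell (27.0% of all genes), and 32 had all 4 knockdown libraries above both controls (30.4% of all genes). Scaling by library totals in place of TMM moved the median of all genes to -0.38 in ZM11-kd1 and -0.20 in ZM11-kd2 and shifted the members by the same amount. The members' median stood 1.09 and 0.72 above that of all genes, and 0.68 and 0.60 above it after the GC and length correction.

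The parts of the particle are given by their share of counts, and differences between parts were not tested. The numbers called by part below stand beside 38.2% of all genes higher and 39.8% lower in ZM11-kd1. In ZM11-kd2 these were 36.5% and 36.9%, and 25.6% of all genes rose in both. The beta subunits took 0.106% of counts in control, 0.280% in ZM11-kd1 and 0.203% in ZM11-kd2, a 2.65-fold and 1.92-fold share, while the activators and inhibitor were at 1.14 and 0.98 times their control share. Between these lay the ATPases (1.84 and 1.86 times), the lid (1.68 and 1.78 times), the alpha subunits (1.74 and 1.54 times) and the non-ATPase base subunits (1.48 and 1.30 times). The base chaperones were at 1.28 and 1.57 times the control share and the core assembly chaperones at 1.41 and 1.07 times. These shares of counts carry no correction for GC content and length. After that correction, described further on, 5 of 5 activator and inhibitor genes were called higher in ZM11-kd1 (39.9% of all genes). In ZM11-kd2 3 were then called higher (38.6%) and 1 lower (35.8%). ZM11-kd2 replicate 1 lay above replicate 2 for 37 of 44 members, against 8 in control and 12 in ZM11-kd1, while 48.5% to 49.4% of all genes did so. Over all genes the chi-square per degree of freedom between the 2 libraries of a group was 2.36 in control, 3.97 in ZM11-kd1 and 10.7 in ZM11-kd2.

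**Figure D1:**
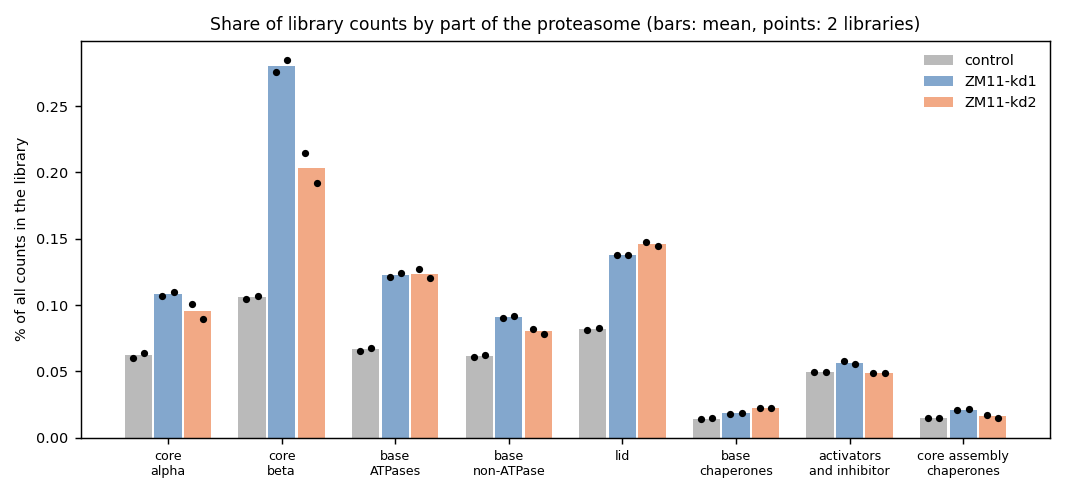
Share of each library's counts, in percent, taken by 8 parts of the proteasome, without the GC and length correction. Bars are means and points the 2 libraries of control, ZM11-kd1 and ZM11-kd2. The beta subunits reach 0.280% and 0.203% against 0.106% in control, while the activators and inhibitor stay between 0.048% and 0.058% in every library.

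The alpha subunits form the gated outer rings of the core particle. Of 7 tested, 5 rose and 2 fell in ZM11-kd1 (median log2 fold change 0.72), and 4 rose and 1 fell in ZM11-kd2 (median 0.44). PSMA3 was at 87.9 and 91.0 CPM in control, 234 and 250.5 in ZM11-kd1, and 219 and 195 in ZM11-kd2. It rose in both, with log2 fold changes of 1.44 ± 0.06 and 1.21 ± 0.06 (SE, edgeR adjusted p = 5.07e-11 and 4.99e-10). PSMA5 rose by 1.27 and 1.21, PSMA7 by 1.28 and 0.57, and PSMA4 by 0.72 and 0.44 on the log2 scale. PSMA1 rose by 0.62 in ZM11-kd1, and its log2 fold change in ZM11-kd2 was 0.02. PSMA2 went the other way, with 53 and 59 reads in control, 12 and 17 in ZM11-kd1 and 18 and 22 in ZM11-kd2. Its log2 fold changes were -1.98 ± 0.38 and -1.66 ± 0.37 (edgeR adjusted p = 0.000283 and 0.000885). PSMA6 had 80 and 91 reads in control, 44 and 38 in ZM11-kd1 and 90 and 85 in ZM11-kd2, and fell in ZM11-kd1 by 1.11 ± 0.24 (edgeR adjusted p = 0.000721). PSMA6 and PSMA1 were singled out after their values were seen. The rings hold their different subunits in equal number, yet these counts were far below those of the other alpha genes. Per kilobase of canonical transcript, the control level was 204 CPM for PSMA7 but 10.4 for PSMA1, 2.72 for PSMA6 and 1.27 for PSMA2. These 3 genes ranked 28, 30 and 31 of 31 constitutive subunits. In GENCODE 44, 100% of the exon bases of PSMA2, 81.4% of PSMA6 and 67.0% of PSMA1 lie within exons of another gene of the same strand that has no row in the table. How reads in such shared exons were counted is not given in the sources used here, and the part of the overlap in these values was not tested. PSMA8, the testis form, had 0 reads in every library, where 3 reads would be at most 0.101 CPM.

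Every beta subunit tested rose in both knockdowns, where 25.6% of all genes did. Their median log2 fold change was 1.76 in ZM11-kd1 and 1.09 in ZM11-kd2 over 8 genes, ranging from 1.26 to 2.28 and from 0.57 to 1.49. PSMB5, which carries the chymotrypsin-like site that bortezomib binds, was at 105 and 112 CPM in control, 274 and 289 in ZM11-kd1, and 243 and 216 in ZM11-kd2. Its rise was 2.60-fold and 2.12-fold (log2 1.38 ± 0.06 and 1.08 ± 0.06, edgeR adjusted p = 7.23e-11 and 1.54e-09). PSMB6, the caspase-like subunit, was at 95.4 and 98.2 CPM in control, 385 and 405 in ZM11-kd1, and 223 and 189 in ZM11-kd2. It rose 4.08-fold and 2.13-fold (edgeR adjusted p = 4.73e-12 and 4.31e-09). PSMB7, the trypsin-like subunit, was at 81.9 and 86.8 CPM in control, 263 and 272 in ZM11-kd1, and 199 and 181 in ZM11-kd2. It rose 3.17-fold and 2.25-fold (edgeR adjusted p = 5.9e-12 and 3.53e-10). For all 3 catalytic genes, the control libraries were lowest and the ZM11-kd1 libraries highest, with no overlap. With the GC and length correction PSMB5 was called higher in ZM11-kd2 than in ZM11-kd1 and PSMB7 did not pass the test of that difference. PSMB1, a structural beta subunit, rose from 134 and 139 CPM in control to 534 and 565 in ZM11-kd1 and 413 and 352 in ZM11-kd2. Its log2 fold changes were 2.01 ± 0.07 and 1.49 ± 0.07 (edgeR adjusted p = 4.45e-12 and 1.41e-10). PSMB3 was at 90.0 and 92.9 CPM in control, 213 and 225 in ZM11-kd1, and 179 and 145 in ZM11-kd2 (log2 fold changes 1.26 and 0.82). PSMB2 rose by 1.68 and 1.40 and PSMB4 by 1.85 and 0.87. PSMB4 had the highest level per kilobase of the constitutive subunits, 328 CPM in control and 1180 in ZM11-kd1.

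PSMB10, the interferon-inducible catalytic subunit that replaces PSMB7 in the immunoproteasome, was counted with few reads, and 56.1% of its exon bases lie within a same-strand gene that has no row in the table. It had 63 and 55 reads in control, 319 and 276 in ZM11-kd1 and 95 and 104 in ZM11-kd2. The log2 fold change was 2.28 ± 0.17 in ZM11-kd1 (edgeR adjusted p = 1.6e-08) and 0.57 ± 0.20 in ZM11-kd2 (edgeR adjusted p = 0.0175). The call in ZM11-kd2 was lost with library totals, with the GC and length correction, without control replicate 2 (log2 0.46) and without ZM11-kd2 replicate 2 (log2 0.47). The inducible subunits left out of the set were also low. PSMB8 had 105 and 65 reads in control, 422 and 293 in ZM11-kd1 and 114 and 111 in ZM11-kd2, with log2 fold changes of 2.01 and 0.22 (edgeR adjusted p = 3.68e-07 and 0.405). PSMB9 had 33 and 50 reads in control, 54 and 49 in ZM11-kd1 and 12 and 9 in ZM11-kd2, with log2 fold changes of 0.27 and -2.15 (edgeR adjusted p = 0.468 and 0.000267). PSMB11, the thymus form, had at most 3 reads in any library and was not tested.

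**Figure D2:**
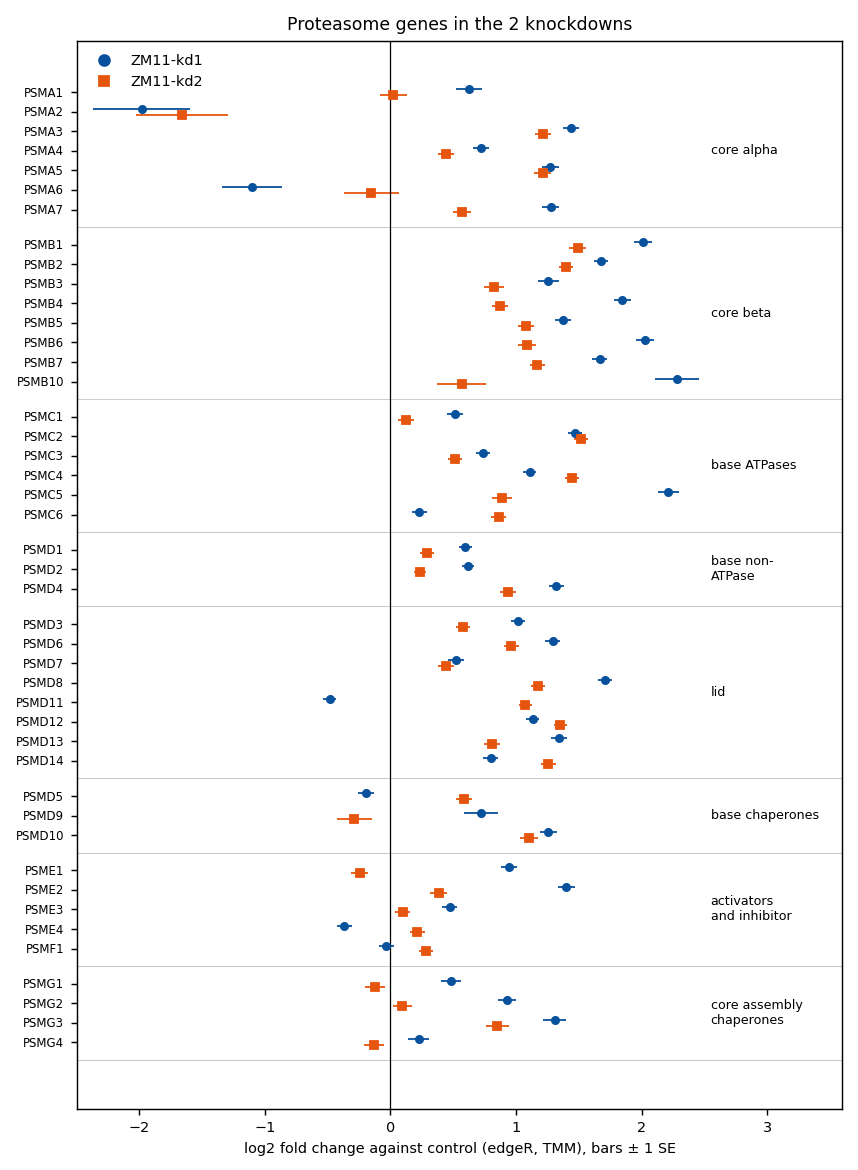
Log2 fold changes of the 44 tested proteasome genes against control in ZM11-kd1 (circles) and ZM11-kd2 (squares), grouped by their place in the particle. Bars are ± 1 SE. All 8 beta genes lie to the right of 0 in both knockdowns, while PSMA2 lies far to the left in both and PSMD11 on opposite sides.

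In the base, the 6 ATPases had medians of 0.92 and 0.88, and 6 rose in ZM11-kd1 and 5 in ZM11-kd2. PSMC5 was at 84.2 and 82.4 CPM in control, 370 and 403 in ZM11-kd1, and 170 and 138 in ZM11-kd2. Its log2 fold changes were 2.21 ± 0.08 and 0.89 ± 0.08 (edgeR adjusted p = 7.58e-12 and 1.76e-07). PSMC2 rose by 1.47 and 1.52 and PSMC4 by 1.11 and 1.44 on the log2 scale. PSMC4 and PSMC6 were higher in ZM11-kd2 than in ZM11-kd1 (0.34 and 0.63, edgeR adjusted p = 4.92e-05 and 2.76e-07), the other way from PSMC5. PSMC6 rose by 0.23 in ZM11-kd1, which turned to -0.12 with library totals, and by 0.86 in ZM11-kd2, and PSMC3 by 0.74 and 0.52. PSMC1 went from 40.4 and 41.6 CPM in control to 57.4 and 59.6 in ZM11-kd1 and 43.9 and 45.4 in ZM11-kd2. It rose in ZM11-kd1 (log2 0.51 ± 0.06, edgeR adjusted p = 4.06e-06) but was not called in ZM11-kd2 (log2 0.12 ± 0.07, edgeR adjusted p = 0.102). After the GC and length correction it was called higher there too (0.25, edgeR adjusted p = 0.00124). Of its exon bases 83.2% overlap NRDE2 on the opposite strand, and the counting's use of strand is not given in the sources used here.

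The non-ATPase subunits of the base include the scaffold proteins PSMD1 and PSMD2 and the ubiquitin receptor PSMD4, and 3 of 3 rose in both knockdowns. PSMD4 was at 198 and 209 CPM in control, 492 and 526 in ZM11-kd1, and 411 and 368 in ZM11-kd2. It rose by 1.32 ± 0.06 and 0.94 ± 0.06 on the log2 scale (edgeR adjusted p = 7.77e-11 and 4.98e-09). Of the scaffolds, PSMD1 rose by 0.60 and 0.29 and PSMD2 by 0.62 and 0.24. With library totals the rise of PSMD2 in ZM11-kd2 was not called (0.07, edgeR adjusted p = 0.217). With the GC and length correction PSMD1 (0.84) was above PSMD4 (0.79) in ZM11-kd1.

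Of the 8 lid subunits, 7 rose in ZM11-kd1 and 8 in ZM11-kd2, with medians of 1.07 and 1.02. PSMD8 rose from 124 and 128 CPM in control to 399 and 423 in ZM11-kd1 and 293 and 275 in ZM11-kd2 (log2 1.71 ± 0.06 and 1.17 ± 0.06, edgeR adjusted p = 2.25e-12 and 1.49e-10). PSMD14, the deubiquitinase that cuts chains from substrates, was at 53.7 and 52.6 CPM in control, 94.0 and 90.9 in ZM11-kd1, and 131 and 124 in ZM11-kd2. It rose by 0.80 ± 0.06 and 1.26 ± 0.06 (edgeR adjusted p = 9.71e-09 and 1.09e-10), and its libraries did not overlap between any 2 groups. PSMD11, a lid scaffold subunit, was the exception. It was at 99.7 and 104 CPM in control, 73.2 and 72.5 in ZM11-kd1, and 211 and 219 in ZM11-kd2. It fell by 0.49 ± 0.06 in ZM11-kd1 (edgeR adjusted p = 1.31e-06) and rose by 1.08 ± 0.05 in ZM11-kd2 (edgeR adjusted p = 2.44e-10). PSMD12 rose by 1.13 and 1.35, PSMD6 by 1.29 and 0.96, PSMD13 by 1.34 and 0.81, PSMD3 by 1.02 and 0.58, and PSMD7 by 0.52 and 0.44. Of the exon bases of PSMD7, 51.6% overlap a gene on the opposite strand that has no row in the table.

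Counting only the 31 subunits of the constitutive core, base and lid, 28 rose in ZM11-kd1 (38.2% of all genes) and 27 in ZM11-kd2 (36.5%). Without PSMA1, PSMA2 and PSMA6, whose exons are shared, 27 of 28 rose in ZM11-kd1 and 27 of 28 in ZM11-kd2, against the same shares. The exceptions were PSMD11 and, without the GC and length correction, PSMC1. This subset was chosen after its values had been seen.

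**Figure D3:**
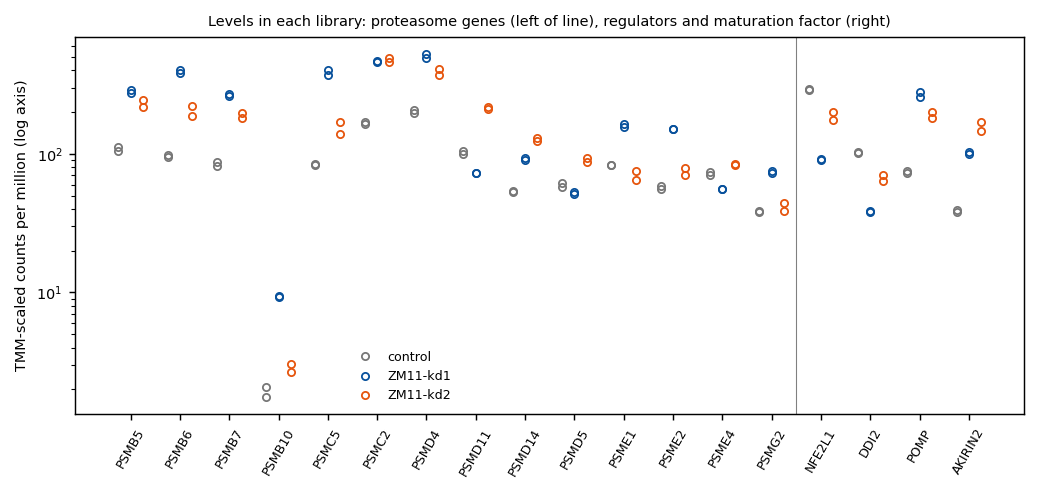
TMM-scaled CPM in each library on a log axis, for 14 proteasome genes and, right of the line, NFE2L1, DDI2, POMP and AKIRIN2. Each group has 2 open circles. PSMB5, PSMB6 and PSMB7 are lowest in control, PSMD11 is lowest in ZM11-kd1, and NFE2L1 and DDI2 are highest in control.

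Of the 5 activator and inhibitor genes, 3 rose and 1 fell in each knockdown. After the GC and length correction, 5 of 5 were called higher in ZM11-kd1, where 39.9% of all genes were then higher and 37.9% lower. The calls in ZM11-kd2 were still 3 higher and 1 lower, where 38.6% of all genes were then higher and 35.8% lower. PSME1 and PSME2 form the interferon-inducible cap. PSME1 was at 83.7 and 82.5 CPM in control, 157 and 163 in ZM11-kd1, and 74.8 and 65.2 in ZM11-kd2. It rose by 0.95 ± 0.07 in ZM11-kd1 (edgeR adjusted p = 5.23e-09) and fell by 0.25 ± 0.07 in ZM11-kd2 (edgeR adjusted p = 0.00403). PSME2 was at 55.4 and 58.9 CPM in control, 150.2 and 152 in ZM11-kd1, and 78.9 and 70.2 in ZM11-kd2 (log2 1.40 ± 0.07 and 0.38 ± 0.07, edgeR adjusted p = 7.2e-11 and 0.000114). PSME3, the nuclear activator, was at 125 and 132 CPM in control, 186 and 171 in ZM11-kd1, and 134 and 141 in ZM11-kd2 (log2 0.47 ± 0.06 and 0.10 ± 0.06, edgeR adjusted p = 3.82e-06 and 0.157). PSME4, a large single-chain activator, was at 74.1 and 69.8 CPM in control, 55.5 and 55.9 in ZM11-kd1, and 82.6 and 84.3 in ZM11-kd2. Its log2 fold change in ZM11-kd1 was -0.37 ± 0.06 (edgeR adjusted p = 5.18e-05), which the correction turned to a called rise of 0.32 (edgeR adjusted p = 4.23e-05). It rose by 0.21 ± 0.06 in ZM11-kd2 (edgeR adjusted p = 0.00459). The rise was not called with library totals (log2 0.04) or without control replicate 2 (log2 0.17). PSMF1, the inhibitor of the core, was at 96.2 and 97.6 CPM in control, 98.0 and 91.5 in ZM11-kd1, and 118 in each ZM11-kd2 library. It rose by 0.29 ± 0.06 in ZM11-kd2 (edgeR adjusted p = 0.000331), and its log2 fold change in ZM11-kd1 was -0.03 ± 0.06 (edgeR adjusted p = 0.613). With library totals the rise in ZM11-kd2 was not called (0.11), and PSMF1 was called lower in ZM11-kd1 (-0.39).

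Of the 4 core assembly chaperones, 4 rose in ZM11-kd1 (3 after the GC and length correction, with PSMG4 lower), and PSMG3 rose in ZM11-kd2. In ZM11-kd2 PSMG1 and PSMG4 were called lower with the correction (-0.25 and -0.26) and with library totals (-0.30 and -0.30). PSMG1 and PSMG2 act as a pair that builds the alpha ring, as do PSMG3 and PSMG4. PSMG1 was at 34.2 and 34.7 CPM in control, 45.7 and 50.8 in ZM11-kd1, and 33.2 and 30.0 in ZM11-kd2 (log2 0.48 and -0.12, edgeR adjusted p = 5.22e-05 and 0.171). PSMG2 was at 38.3 and 38.9 CPM in control, 72.3 and 75.0 in ZM11-kd1, and 43.8 and 38.6 in ZM11-kd2 (log2 0.93 and 0.09, edgeR adjusted p = 1.72e-08 and 0.257). The ZM11-kd2 libraries of PSMG2 overlapped control. PSMG3 was at 37.5 and 36.2 CPM in control, 87.0 and 95.7 in ZM11-kd1, and 73.9 and 59.0 in ZM11-kd2 (log2 1.31 and 0.85, edgeR adjusted p = 6.5e-09 and 1.11e-06). PSMG4 was at 23.3 and 23.2 CPM in control, 27.5 and 26.7 in ZM11-kd1, and 21.7 and 20.6 in ZM11-kd2 (log2 0.22 and -0.13, edgeR adjusted p = 0.0202 and 0.157). The call of PSMG4 in ZM11-kd1 did not hold without any single control or ZM11-kd1 library, with log2 fold changes from 0.21 to 0.25 and edgeR adjusted p from 0.0506 to 0.103, nor with the DESeq2 Wald test or a minimum of 10 counts in every library, and it turned to -0.13 with library totals and to a called fall of -0.48 with the GC and length correction (edgeR adjusted p = 2.1e-05).

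The base chaperones PSMD5, PSMD9 and PSMD10 escort the ATPases during assembly. PSMD10, also known as the oncoprotein gankyrin, was at 57.6 and 61.4 CPM in control, 141 and 143 in ZM11-kd1, and 136 and 119 in ZM11-kd2, and rose by 1.26 and 1.10 (edgeR adjusted p = 3.49e-10 and 2.39e-09). PSMD5 was at 58.0 and 61.4 CPM in control, 51.4 and 53.1 in ZM11-kd1, and 86.6 and 92.7 in ZM11-kd2. It fell by 0.19 ± 0.06 in ZM11-kd1 (edgeR adjusted p = 0.0137) and rose by 0.59 ± 0.06 in ZM11-kd2 (edgeR adjusted p = 8.8e-07). The fall was not called without control replicate 2 (log2 -0.15) or ZM11-kd1 replicate 1 (log2 -0.17), and the GC and length correction turned it to 0.08 (edgeR adjusted p = 0.224). PSMD9 had 219 and 231 reads in control, 377 and 387 in ZM11-kd1 and 227 and 193 in ZM11-kd2, with log2 fold changes of 0.72 and -0.29 (edgeR adjusted p = 0.000174 and 0.0791), and 28.8% of its exon bases are shared with another gene. In ZM11-kd2 it was called lower with library totals (-0.46) and with the GC and length correction (-0.33).

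The difference between the knockdowns was tested directly in the same fit. Relative to ZM11-kd1, 31 members were lower in ZM11-kd2 (33.8% of all genes) and 9 higher (34.9% of all genes), with a median log2 fold change of -0.36 (all genes 0.02). The beta subunits were lower in 8 of 8 and the core assembly chaperones in 4 of 4. After a correction for GC content and transcript length, 5 of 8 beta subunits were lower (33.9% of all genes) and PSMB5 (0.20) and PSMB3 (0.14) were called higher (33.7% of all genes), while PSMB7 was not called (-0.10, edgeR adjusted p = 0.0573). Of the core assembly chaperones, PSMG1 and PSMG2 were then lower and PSMG3 (0.19) and PSMG4 (0.21) higher. Without the correction, the 4 members with the largest difference were PSMB10 (-1.72 ± 0.16), PSMD11 (1.56 ± 0.05), PSMC5 (-1.32 ± 0.08) and PSME1 (-1.19 ± 0.07), with edgeR adjusted p of 2.89e-07, 1.88e-11, 2.56e-09 and 1.1e-09. PSMD11, PSMD5 and PSME4 were called lower in ZM11-kd1 and higher in ZM11-kd2, and PSME1 the reverse. Of these 4, PSMD11 and PSME1 were still called in opposite directions after the correction. The median difference was -0.98 over the 7 tested members with an interferon response core and -0.28 over the 31 with a promoter that lacks it, and -0.56 and -0.02 after the correction, given as a description.

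**Figure D4:**
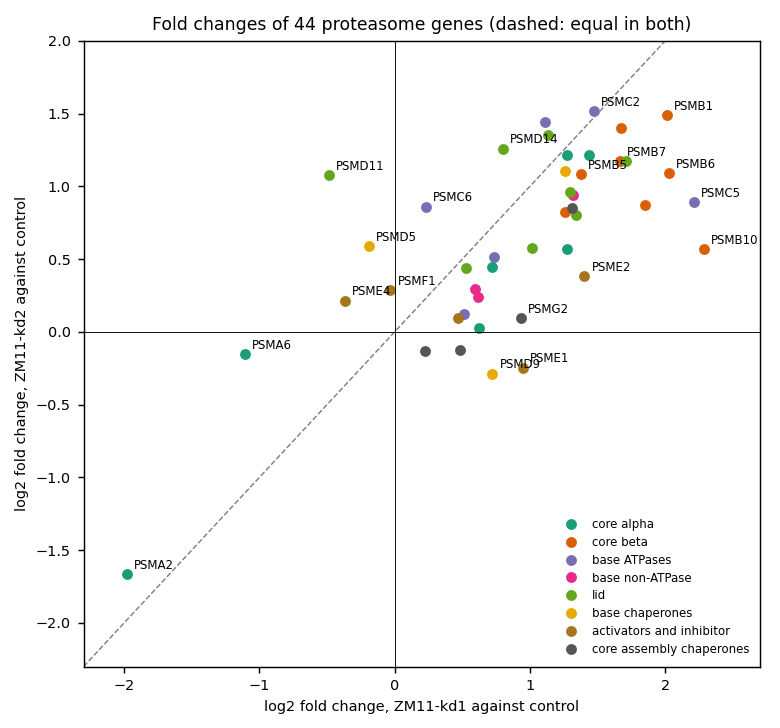
Log2 fold change against control of 44 proteasome genes in ZM11-kd1 (horizontal) and ZM11-kd2 (vertical), coloured by part of the particle. Both axes use the same control libraries, and the dashed line marks equal changes. PSMD11, PSMD5 and PSME4 lie at upper left, PSME1 at lower right, and all 8 beta genes lie below the line.

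Fold changes in ZM11-kd1 tended to be lower for longer transcripts, among all genes and among the members. Across members, Spearman's rho of the log2 fold change with canonical transcript length was -0.47 in ZM11-kd1, -0.01 in ZM11-kd2 and 0.53 between the knockdowns. Over 15950 genes with a length the values were -0.32, -0.12 and 0.31, and genes of these same libraries are not independent replicates. A length trend was also present within groups. For replicate 2 against replicate 1, rho over all genes was -0.09 in control, -0.16 in ZM11-kd1 and 0.32 in ZM11-kd2. With GC content, rho across members was 0.37 in ZM11-kd1, -0.05 in ZM11-kd2 and -0.52 between the knockdowns. Over all genes these values were 0.19, -0.03 and -0.30. After a correction for GC content and length, the median of the members was 0.70 in ZM11-kd1 and 0.61 in ZM11-kd2, 39 (39.9% of all genes) and 34 (38.6%) rose, and 4 (37.9%) and 5 (35.8%) fell. The corrected log2 fold changes in ZM11-kd1 were 0.74 for PSMB5, 1.26 for PSMB6, 1.28 for PSMB10, 0.54 for PSMB3, 0.79 for PSMD4, 1.08 for PSMD8, 0.80 for PSME2, 0.34 for PSME1, 0.54 for PSMG2 and 0.57 for PSMG3, all still called higher. PSMA7 (0.66) and PSMB4 (1.22) were also still called higher after the correction. The corrected values turned sign for PSME4 (0.32) and PSMG4 (-0.48), which were called the opposite way. For PSMD5 (0.08) the sign turned as well, and it was no longer called. PSMF1 was called higher in ZM11-kd1 after correction (0.64) but lower with library totals (-0.39). PSMD11 was still called lower after correction (-0.15, edgeR adjusted p = 0.00795). Between the knockdowns, 12 members were higher (33.7% of all genes) and 23 lower (33.9%) after correction, with a median of -0.14, and 9 called differences changed sign, of which 6 were called the opposite way. The part of length and composition in the results was not tested further.

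The regulators known to drive proteasome genes did not all move with them. NFE2L1 was at 289 and 294 CPM in control, 91.5 and 90.2 in ZM11-kd1, and 175 and 199.7 in ZM11-kd2, and fell by 1.68 ± 0.06 and 0.64 ± 0.06 on the log2 scale (edgeR adjusted p = 8.86e-12 and 2.96e-07). DDI2 was at 102 and 103 CPM in control, 38.4 and 38.0 in ZM11-kd1, and 63.9 and 70.8 in ZM11-kd2, with log2 fold changes of -1.43 and -0.61. NGLY1 rose by 0.24 in ZM11-kd1 and fell by 0.40 in ZM11-kd2, and the related factor NFE2L2 rose by 0.27 and 0.68. Of the small MAF proteins that pair with these factors, added after their values were seen, MAFF rose by 1.47 and 1.27 and MAFG by 1.06 and 0.75. MAFK rose by 0.17 and 0.74, but in ZM11-kd1 it was called lower with library totals (-0.18) and with the GC and length correction (-0.22). AKIRIN2, which brings assembled proteasomes into the nucleus, was at 38.3 and 39.2 CPM in control, 99.4 and 103 in ZM11-kd1, and 170 and 146 in ZM11-kd2 (log2 1.38 and 2.03, edgeR adjusted p = 2.73e-10 and 9.47e-12). POMP, the maturation factor of the core, was at 72.5 and 75.3 CPM in control, 257 and 279.9 in ZM11-kd1, and 202 and 181 in ZM11-kd2. It rose by 1.86 and 1.37 on the log2 scale, and SEM1, a small lid subunit, by 1.52 and 0.71. The ubiquitin receptor ADRM1 rose by 0.74 and 0.80. The deubiquitinases of the regulatory particle differed, USP14 rising by 0.53 and 0.95, and UCHL5 falling by 0.78 in ZM11-kd1 and rising by 0.28 in ZM11-kd2. With library totals the values of NGLY1 and NFE2L2 in ZM11-kd1 turned to -0.11 and -0.08 and were not called. After the GC and length correction ADRM1 in ZM11-kd1 turned to -0.19 and was called lower.

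Among all genes tested, 38.2% rose and 39.8% fell in ZM11-kd1 and 36.5% rose and 36.9% fell in ZM11-kd2. Of the 20 partners and regulators listed, 13 rose and 6 fell in ZM11-kd1 and 14 rose and 4 fell in ZM11-kd2. These are the genes of the paragraph above, with MAFF, MAFG and MAFK among them. The others are UBE3C, TXNL1, ECPAS, PAAF1, ZFAND2A, ZFAND5 and BACH1. Of 19 tested genes for ubiquitin, its activating enzymes and shuttles, 15 rose and 4 fell in ZM11-kd1 and 17 rose and 1 fell in ZM11-kd2, with medians of 0.67 and 0.53. Of 15 genes of the MHC class I and immunoproteasome list, which holds PSMB10, PSME1 and PSME2, 9 rose and 2 fell in ZM11-kd1 and 8 rose and 2 fell in ZM11-kd2. Between the knockdowns, 10 of these were lower in ZM11-kd2 (33.8% of all genes) and 3 higher (34.9% of all genes).

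Over the 6 libraries, the genes whose log2 CPM was most like that of PSMB5 were RPF1, FES and GTF2B, with Pearson's r from 0.9997 to 0.9998. Of 16509 other genes, 453 had r above 0.99. Across all pairs of members the median r was 0.80, ranging from -0.99 to 1.00.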

How the data were processed

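RNA of 22Rv1 cells was measured in 6 libraries, grouped by their labels into control, ZM11-kd1 and ZM11-kd2 with 2 each. The methods name poly(A) selection or rRNA removal without settling which, then paired-end sequencing, trimming and alignment to hg38. The submitters' processing notes name FastQC 0.11.9, STAR 2.7.9a and HTSeq 0.13.5. The annotation, use of strand and handling of shared exons are not given in the sources used here. Each deposited value is a whole, unscaled read count for one symbol, as the authors made it with HTSeq.

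From these counts, edgeR 4.0.16 in R 4.3.3 was run with TMM, filterByExpr (16510 genes kept) and the quasi-likelihood test in one fit of the 3 groups with 3 residual degrees of freedom. Benjamini-Hochberg adjustment ran over all genes tested, with calls at an adjusted p under 0.05. TMM assumes that most genes do not change, while 78.0% of genes were called in ZM11-kd1. SE was derived from each log2 fold change and its F statistic. Levels are TMM-scaled CPM. Coordinates and exon overlaps are from GENCODE 44 on hg38. Alternatives were DESeq2 1.42.0 (size factors or Wald test), library totals, a replicate block, a fold of at least 1.5, fits of 2 groups alone, no count filter or a minimum of 10 everywhere, a lowess correction (span 0.3) for GC content and canonical length, available for 96.6% of genes, and each library left out. Counts without members of shared exons were added after seeing the data. The functions were tested on simulated data in which few genes changed, equally up and down, with a fixed spread. That setting differs from these data, with 78.0% of genes called in ZM11-kd1, so it does not test TMM here.

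The members and lists were chosen with earlier results of these data known. Members given in every library were the catalytic, inducible, ubiquitin-handling, activator, inhibitor and chaperone genes, the extremes of the alpha, beta, ATPase and lid groups, the 4 largest differences between the knockdowns and members called in opposite directions. PSMA6 was added after its values were seen. The remaining tested members are given by fold change. Figures were drawn with matplotlib 3.10.9.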

Additional observations from a re-analysis of the deposited data

Results flagged for a closer look

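The change differed between the knockdowns for 40 of the 44 members tested, where 68.8% of all genes tested differed, by the test of ZM11-kd2 against ZM11-kd1 (edgeR adjusted p under 0.05). The 25 given here belong to the members named by rule, some of which that rule took for the size of this difference, so their number is no result. Those higher in ZM11-kd2, as a log2 fold change, were PSMD11 (1.56), PSMD5 (0.78), PSME4 (0.58), PSMD14 (0.46) and PSMF1 (0.32). PSMA6, named after its values were seen, was also higher (0.95). Those lower in ZM11-kd2 were, among beta subunits, PSMB10 (-1.72), PSMB6 (-0.94), PSMB1 (-0.52), PSMB7 (-0.50), PSMB3 (-0.44) and PSMB5 (-0.29). Among the alpha, base and lid genes they were PSMC5 (-1.32), PSMD8 (-0.53), PSMC1 (-0.39), PSMD4 (-0.38) and PSMA3 (-0.22). Among activators and chaperones they were PSME1 (-1.19), PSME2 (-1.02), PSMD9 (-1.01), PSMG2 (-0.84), PSMG1 (-0.61), PSMG3 (-0.46), PSME3 (-0.37), PSMG4 (-0.36) and PSMD10 (-0.15). After the GC and length correction, PSMB5, PSMB3, PSMG3 and PSMG4 were instead called higher in ZM11-kd2, and PSMB7, PSMD4, PSMD8, PSMF1, PSMA3 and PSMD10 were not called.

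PSMD11, PSMD5 and PSME4 were called lower in ZM11-kd1 and higher in ZM11-kd2, and PSME1 the reverse. After the GC and length correction, PSMD11 and PSME1 kept their opposite calls, with corrected log2 fold changes of -0.15 and 1.17 for PSMD11 and 0.34 and -0.39 for PSME1.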

How the results depend on the processing

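In ZM11-kd1, 5 members were lower, against 2 with a fold of at least 1.5, and 3 without the members of shared exons. In ZM11-kd2, 2 members were lower, against 5 with library totals, 5 with the GC and length correction, 4 when the block was added to it, 1 with a fold of at least 1.5, 1 without the members of shared exons, and 2 to 4 with 1 library left out (4 without ZM11-kd2 replicate 1). In both knockdowns 1 (PSMA2) was lower, against 2 with the correction, with or without the block, and 0 without the members of shared exons, which removes PSMA2. Between the knockdowns, 9 were higher and 31 lower, against 4 and 11 with a fold of at least 1.5. The counts that rose stayed within 1.5 times under every alternative run, and numbered 32 to 39 in ZM11-kd1 and 23 to 35 in ZM11-kd2.

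Several single genes changed sign, and the cause was not tested. With the GC and length correction, without and with the block, these were the log2 fold changes in ZM11-kd1 of PSME4 (0.32, 0.32), PSMF1 (0.64, 0.64), PSMG4 (-0.48, -0.48), PSMD5 (0.0784, 0.0794), PSMB9 (-0.35, -0.34) and ADRM1 (-0.19, -0.19), and in ZM11-kd2 of PSMG2 (-0.0961, -0.0968). Between the knockdowns they were PSMB5 (0.20, 0.20), PSMD4 (0.0334, 0.0335), PSMF1 (-0.0231, -0.0228), PSMG3 (0.19, 0.19), PSMG4 (0.214, 0.215), PSMB3 (0.14, 0.14), PSMD8 (0.0106, 0.0108) and USP14 (-0.0694, -0.0695). Members given by fold change alone were recomputed without the block: PSMC3 (0.25), PSMD12 (-0.27), PSMC2 (-0.24) and PSMD7 (0.02) turned between the knockdowns and PSMA1 (-0.15) in ZM11-kd2. With library totals they were, in ZM11-kd1, PSMG4 (-0.13), PSMB9 (-0.088), NFE2L2 (-0.0826) and NGLY1 (-0.11). In ZM11-kd2 they were PSME3 (-0.0743), PSMG2 (-0.0771) and PSMC1 (-0.047), and between the knockdowns PSMD10 (0.0287). Members given by fold change alone that turned were PSMC6 in ZM11-kd1 (-0.12), PSMA1 in ZM11-kd2 (-0.15), and PSMA5 (0.12) and PSMD7 (0.10) between the knockdowns. With 1 library left out the log2 fold change ranged from -0.0797 to 0.0187 for PSMF1 in ZM11-kd1, from -0.0030 to 0.19 for PSMG2 in ZM11-kd2, from -0.00403 to 0.69 for PSMA2 between the knockdowns, and from -0.10 to 0.62 for PSMB8 in ZM11-kd2.

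The labels give same-numbered libraries of different groups only a shared number, and the correlations of their deviations were 0.006, -0.03 and -0.04. With 2 libraries per group, these values cannot settle whether the libraries were prepared as pairs. With the replicate block, 38 members rose and 5 fell in ZM11-kd1, 34 rose and 2 fell in ZM11-kd2, 30 rose and 1 fell in both, and 9 were higher and 30 lower between the knockdowns. With 2 libraries per group, low-count members such as PSMA2, PSMA6 and PSMB10 are the least certain.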
